A study of Rattus norvegicus with 8 samples.

Results

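The genes described here write, copy and remove the methyl mark on cytosine in DNA. The list named 8 genes, and a probe counted as theirs where its transcript accession, without version, matched the gene's symbol in the rat RefSeq gene table. Of the 8 genes, 3 had such a probe (Dnmt1, Dnmt3a and Dnmt3l, with 1 probe each), among 15154 genes matched in the series. Dnmt3b, Tet1, Tet2, Tet3 and Uhrf1 were not analysed here. Of the 3 measured genes, Dnmt3a and Dnmt3l passed the filter on dim probes and were tested, and the Dnmt1 probe was not above background on any array.

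The arrays carried RNA of testis cells sorted for the surface protein CD9, from Sprague-Dawley rats in which the germ cells carry a GFP transgene. The aged group held 4 arrays from rats of 21 months and the young group 4 arrays from rats of 4 months, all of 1 strain and all labelled from 18 ng of RNA with the dye Cy3. The labels give neither the promoter of the transgene nor whether animals were pooled or each array came from a separate animal, so the spread behind each p-value is that among these samples and could be technical. The comparison addressed which transcripts differ between aged and young cells of this sort.

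DNA methylation in mammals is set up by the enzymes Dnmt3a and Dnmt3b, which methylate new sites, and by Dnmt3l, a relative without catalytic activity of its own that binds and stimulates them. Dnmt1 copies the pattern after replication, guided by Uhrf1, which binds hemimethylated sites. The Tet enzymes oxidise the mark, after which it is lost by dilution or repair. In the mouse, Dnmt3l is needed in fetal and newborn male germ cells to methylate transposons and imprinted loci, and its loss ends in meiotic failure.

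Values are log2 signals minus the 75th percentile of the same array, so 0 stands for the brightness at that percentile, and a difference of 1 is a doubling. That percentile lay between 326 and 524 intensity units over the 8 arrays, and the share of probes well above background ranged over the arrays between 63.0% and 72.0%. Precision is limited by having 4 arrays a group. A single slide, scanned once, carried both groups in a row each, so that age and place on the slide cannot be told apart. Young replicate 1 stood apart from the other young arrays in many genes, and without it 36.9% of 10644 genes tested were called (20.8% higher and 16.1% lower). This array was singled out from these same values, so calls made without it are given as a description and not as support. The sorting antigen Cd9 and the germ cell helicase Ddx4 were above background on all 8 arrays. Cd9 averaged −1.46 ± 0.30 in aged cells and −1.30 ± 0.12 in young cells, and Ddx4 averaged 0.19 ± 0.38 and 0.41 ± 0.17 (SD, n = 4 each; limma adjusted p = 0.492 and 0.448).

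Neither tested gene passed the test of aged against young cells, against 0.655% of the 10236 genes tested that passed the limma test at a Benjamini-Hochberg adjusted p under 0.05. With 2 genes tested, 0 calls is what that share leads to, and nothing about the members is read from it. Neither gene had separated groups, against 14.3% of all genes (10.2% with higher and 4.12% with lower aged values). Both had changes below 0, as 36.6% of all genes did.

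Dnmt3l, the catalytically inactive cofactor, had lower values in 3 of 4 aged arrays. The aged arrays read −2.38, −2.78, −2.37 and −1.90 for replicates 1 to 4, and the young arrays read −2.01, −2.16, −2.01 and −1.80. Aged replicates 1, 2 and 3 lay below all young arrays, and aged replicate 4 lay among the young values, so the groups overlapped. Dnmt3l averaged −2.35 ± 0.36 in aged cells and −1.997 ± 0.14 in young cells (SD, n = 4 each). The change was −0.36 ± 0.18 (SE), with a 95% interval of −0.76 to 0.05, or 0.781-fold (0.589 to 1.03). It did not pass limma (p = 0.0778, adjusted p = 0.203), nor a two-sided permutation test with exact enumeration over the 4 and 4 arrays (p = 0.114, where 0.0286 is the smallest that they allow).

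The Dnmt3l value depended most on aged replicates 2 and 4. Without aged replicate 4 the change was −0.51 (adjusted p = 0.101), and without aged replicate 2 it was −0.22 (adjusted p = 0.449). Without young replicate 1 it was −0.36 (adjusted p = 0.184). Before scaling, the mean processed signals of the probe were 64.6, 52.7, 77.2 and 141 intensity units on aged replicates 1 to 4 and 80.7, 90.8, 125 and 117 units on young replicates 1 to 4. The duplicate spots of the probe differed by a median of 0.14 on the log2 scale within an array, and by as much as 0.47 on aged replicate 1. Such a gap is between single spots of 1 array and the age change is between means of 4 arrays, so their sizes are not compared.

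Dnmt3a, the enzyme that methylates new sites, read −2.11, −1.999, −2.01 and −2.27 in aged replicates 1 to 4 and −1.68, −2.08, −2.04 and −2.21 in young replicates 1 to 4. The groups overlapped, and young replicate 1 was the highest of all 8 arrays. Dnmt3a averaged −2.10 ± 0.13 in aged cells and −2.01 ± 0.23 in young cells (SD, n = 4 each). The change was −0.09 ± 0.14 (SE), with a 95% interval of −0.40 to 0.22, or 0.939-fold (0.759 to 1.16). It was smaller than the spread between arrays (limma adjusted p = 0.667, exact permutation p = 0.600), and without young replicate 1 it was 0.018 (adjusted p = 0.90). Its sign was not stable either, since it turned positive with quantile scaling (0.028) and with median scaling (0.065), which moves all genes of an array together. Duplicate spots of this probe differed by a median of 0.10 and by at most 0.27 within an array.

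Dnmt1, the maintenance enzyme, could not be compared. The processed signals of its probe were 6.10, 4.03, 4.25 and 3.61 intensity units on aged replicates 1 to 4 and 2.76, 3.74, 5.74 and 3.13 units on young replicates 1 to 4. No spot of the probe was well above background on any of the 8 arrays, so its values have no order and no fold change is given. The duplicate spots differed by up to 2.03 on the log2 scale on aged replicate 1. The reading concerns this probe alone and sets no limit on the Dnmt1 transcript.

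**Figure D1:**
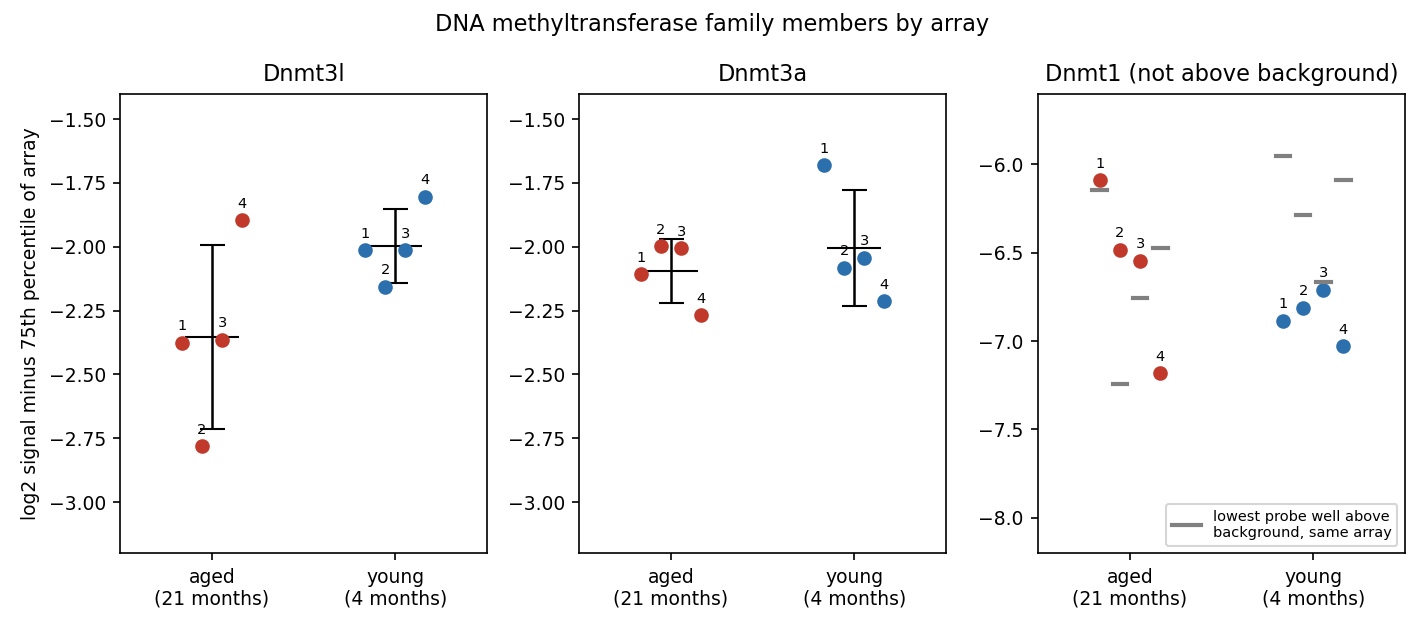
Log2 signal minus the 75th percentile of the array (vertical axes) for Dnmt3l, Dnmt3a and Dnmt1 on the aged and young arrays, with replicate numbers beside the points. Bars for Dnmt3l and Dnmt3a are the mean and SD of 4 arrays, and grey dashes beside Dnmt1 are the lowest probe well above background on the same array. In Dnmt3l, aged replicates 1 to 3 lie below all young arrays and aged replicate 4 does not.

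Under the percentile scaling the change of the median gene was 0.11, and relative to it Dnmt3l stood at −0.46 and Dnmt3a at −0.20. With median scaling the median gene stood at 0.26 and with scaling to spike-in RNA at −0.35. Dnmt3l was −0.20 and −0.81 under these settings, which again puts it at −0.46 relative to the median gene, since scaling moves all genes of an array together. Quantile scaling gave −0.22 for Dnmt3l, or −0.33 relative to the median gene. Correcting the background with the normexp model, which adds an offset of 50 units, gave −0.21 with percentile scaling and −0.17 with quantile scaling. Dnmt3l had a value below 0 under all 23 alternatives and was called in 1 of them, spike-in scaling (adjusted p = 0.0476), where 1053 of the 1059 called genes were lower. Its adjusted p ran to 0.570 over the others. Dnmt3a had a value below 0 under 17 of the 23 and was called in 0 (adjusted p from 0.0617 to 0.986). Relative to the median gene Dnmt3a stayed below 0 under every setting, from −0.24 to −0.015, as Dnmt3l did.

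**Figure D2:**
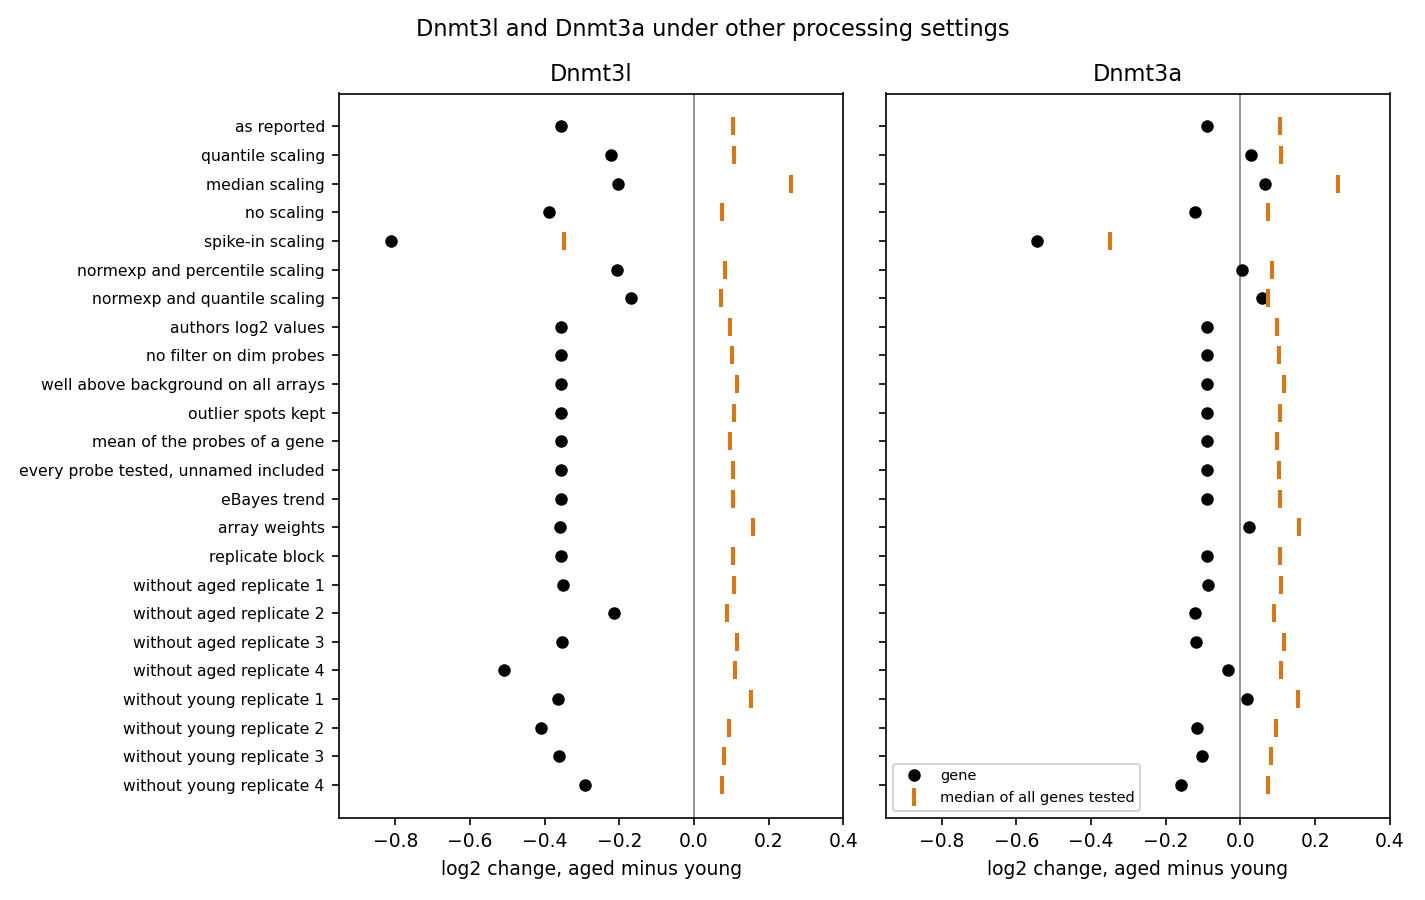
Log2 change, aged minus young (horizontal axes), of Dnmt3l and Dnmt3a under the reported processing and 23 alternatives (rows). Black points are the gene and orange ticks the median of all genes tested. Both genes lie below the median gene in every row. Dnmt3l also lies below 0 in every row, and Dnmt3a crosses 0.

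The genes whose values ran most like those of each member over the 8 arrays were picked by Pearson correlation among 10233 genes, as a description of these arrays. For Dnmt3a they were Cacna1i, a subunit gene of a T-type calcium channel (r = 0.997), Cngb1, a cyclic nucleotide-gated channel subunit (r = 0.955), and Snd1, a nuclease-domain protein (r = 0.939). Cacna1i read 1.33, 1.44, 1.41 and 1.11 in aged replicates 1 to 4 and 1.78, 1.34, 1.36 and 1.15 in young replicates 1 to 4, with the high young replicate 1 that Dnmt3a also showed. For Dnmt3l they were the homeobox gene Irx5 (r = 0.953), the glycosidase Engase (r = 0.943) and the matrix metalloprotease Mmp2 (r = 0.940). Mmp2 read −2.79, −3.55, −2.44 and −1.87 in aged replicates 1 to 4 and −2.16, −2.22, −2.32 and −2.06 in young replicates 1 to 4, which has its lowest value on aged replicate 2 and its highest on aged replicate 4, as among the aged values of Dnmt3l. Each of these correlations is over 8 arrays that share 1 slide. Dnmt3a and Dnmt3l did not run together, with r = −0.23 over the 8 arrays. Within the groups of 4 arrays r was −0.89 among the aged and −0.33 among the young.

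Around the members stood 4 lists of other methylation genes, with 54 genes, of which 42 had a matched probe and 37 were tested. None of the 37 passed limma (smallest adjusted p = 0.0561, against the 0.655% of all genes called), and 11 of the 37 had an unadjusted p under 0.05, against 31.4% of all genes. Groups did not overlap in 7 of the 37 (18.9%), 4 with higher and 3 with lower aged values, beside the 14.3% of all genes given above. Of the 37 genes 25 had higher and 12 lower values in aged cells, with a median change of 0.13 (−0.33 with spike-in scaling, where the median gene was −0.35), against 63.4% higher and a median of 0.11 over all genes. Where a gene had several probes, as 10 of the 37 did, they ran in the same direction.

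The methyl donor list, of genes around S-adenosylmethionine, held the 4 list genes with higher, separated values in aged cells. They were 36.4% of its 11 tested genes, against 10.2% of all genes, and 0 passed the test. Of the 4, Ahcyl1 and Ahcyl2 are relatives of the enzyme that clears S-adenosylhomocysteine, not makers of the donor. All 4 passed limma without young replicate 1, where 20.8% of all genes were called higher. As the 4 were picked for separated values on these same arrays, that share is not a like comparison and the calls add no support. Of 15 genes 11 were tested, 0 were called in either direction, 9 had higher and 2 lower values, and the median was 0.22. Mtrr, which reactivates methionine synthase, read 1.17, 1.29, 0.90 and 0.86 in aged replicates 1 to 4 and 0.55, 0.80, 0.30 and 0.35 in young replicates 1 to 4. All aged values lay above all young values by a narrow margin, and the change was 0.56 ± 0.15 (adjusted p = 0.0712).

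Ahcyl2 and Ahcyl1 are relatives of the enzyme that clears S-adenosylhomocysteine, and Ahcyl1 is known for binding the IP3 receptor rather than for that reaction. Ahcyl2 averaged 1.84 ± 0.12 in aged cells and 1.32 ± 0.17 in young cells (change 0.53 ± 0.12, adjusted p = 0.0561), and Ahcyl1 averaged 3.52 ± 0.16 in aged cells and 3.08 ± 0.13 in young cells (change 0.44 ± 0.12, adjusted p = 0.0711). The fourth separated gene, named after its values were seen, was Mat2b, the regulatory subunit of the donor-making enzyme (0.38, adjusted p = 0.0890). The catalytic subunit gene Mat2a (0.24), the hydrolase Ahcy (0.13) and methionine synthase Mtr (0.12) had overlapping groups, and their adjusted p lay between 0.40 and 0.60.

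Readers bind the mark once it is written. Of 8 genes 5 were tested, 0 were called, 4 had higher and 1 lower values, and the median was 0.15. Uhrf2, the relative of Uhrf1, averaged 0.39 ± 0.14 in aged cells and −0.08 ± 0.26 in young cells (change 0.46 ± 0.15, adjusted p = 0.0895), with young replicate 2 among the aged values. Mbd1, a methyl-CpG binding protein, averaged 1.04 ± 0.02 in aged cells and 0.76 ± 0.18 in young cells (change 0.28 ± 0.11, adjusted p = 0.138), with young replicate 1 at 1.03 inside the aged range. Mbd3, a relative of the methyl-CpG binders in the NuRD complex, averaged 1.56 ± 0.20 in aged cells and 1.41 ± 0.23 in young cells with overlapping groups (change 0.14 ± 0.15, adjusted p = 0.524). Mbd2 (−0.075) and Zbtb38 (0.15), which bind methylated DNA, also had overlapping groups.

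**Figure D3:**
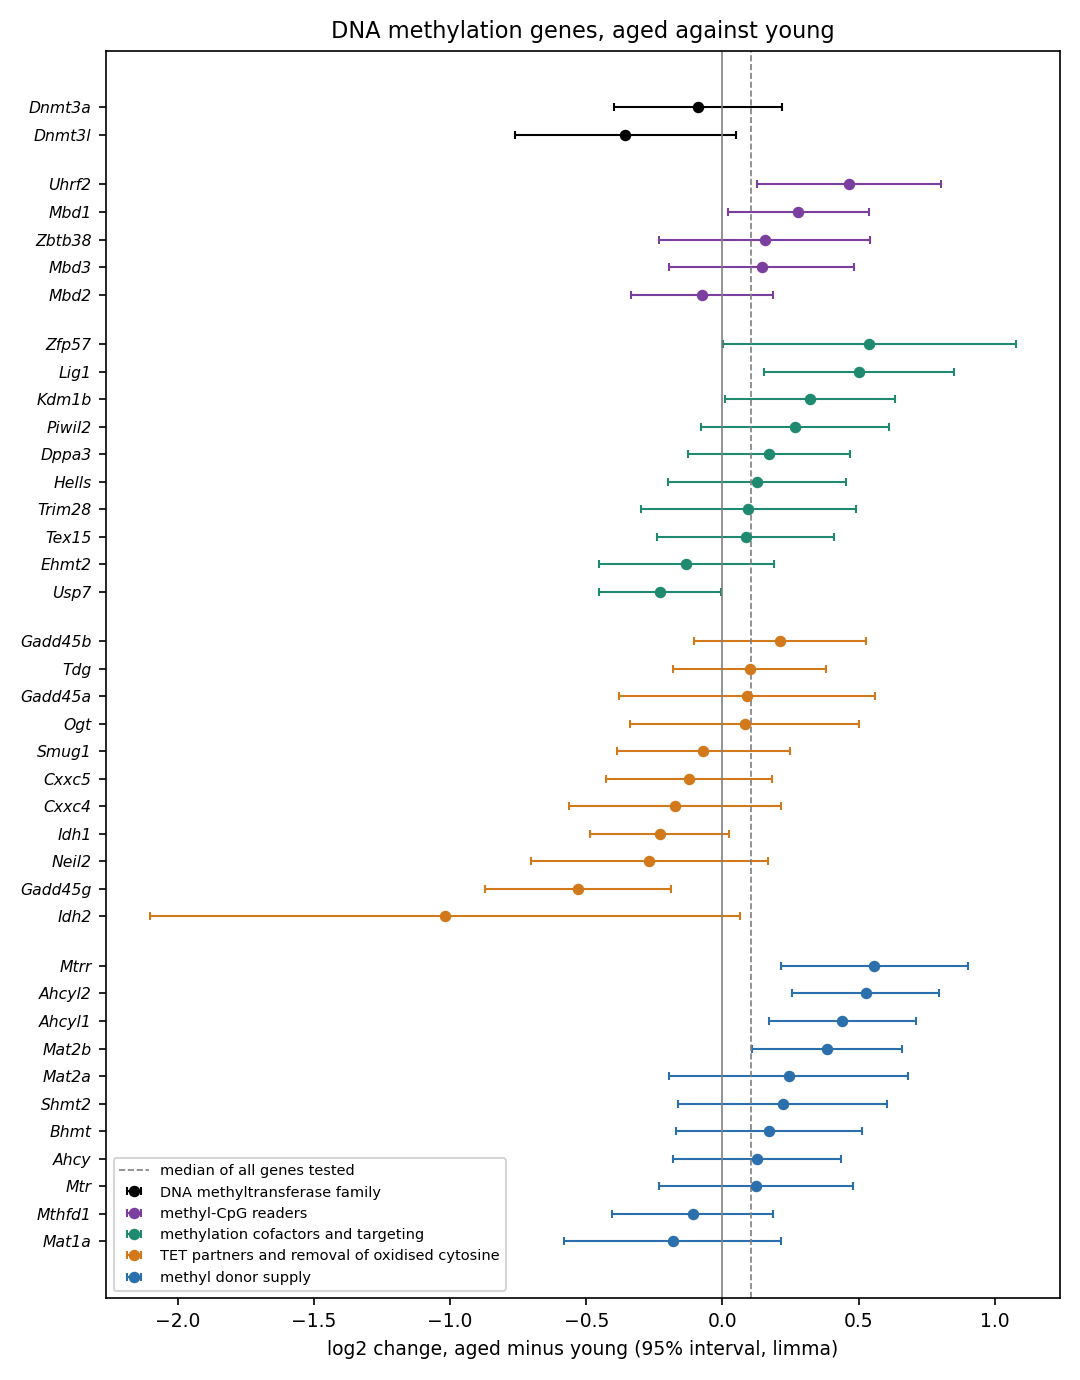
Log2 change, aged minus young (horizontal axis), with the 95% interval of the limma fit, for Dnmt3a, Dnmt3l and the 37 tested genes of the 4 lists (rows, coloured by list). The dashed line is the median of all 10236 genes tested. Intervals of Ahcyl2, Mtrr and Uhrf2 among others lie above 0 and those of Gadd45g and Usp7 below 0, before adjustment over all genes.

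Among cofactors and targeting factors of methylation, 10 of 19 genes were tested, 0 were called, 8 had higher and 2 lower values, and the median was 0.15. Lig1, the replicative DNA ligase whose methylated tail recruits Uhrf1, averaged 3.51 ± 0.20 in aged cells and 3.005 ± 0.25 in young cells (change 0.50 ± 0.15, adjusted p = 0.0848). Kdm1b, a histone demethylase needed for imprints in mouse oocytes, averaged 1.34 ± 0.18 in aged cells and 1.02 ± 0.20 in young cells (change 0.32 ± 0.14, adjusted p = 0.151). Usp7, a deubiquitinase that binds Dnmt1 and Uhrf1, was the separated gene of this list, with 0.82 to 1.07 in aged cells and 1.11 to 1.17 in young cells (change −0.23 ± 0.10, adjusted p = 0.152). Piwil2 and Tex15, which act in piRNA-directed methylation in the mouse, had changes of 0.27 and 0.085, and the remodelling helicase Hells had 0.13. Their groups overlapped, as did those of Ehmt2 (−0.13), Trim28 (0.095), Zfp57 (0.54) and Dppa3 (0.17).

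Partners of the Tet enzymes and genes that remove oxidised cytosine had a median of −0.12 (0.016 with quantile scaling, 0.032 with median scaling and −0.048 without young replicate 1), with 11 of 12 genes tested, 0 called, 4 higher and 7 lower. Gadd45g, of a stress-response family proposed to promote demethylation, read −1.42, −1.42, −1.38 and −1.48 in aged replicates 1 to 4 and −1.34, −0.79, −0.71 and −0.73 in young replicates 1 to 4. The aged values lay close together below all young values, with young replicate 1 next to them, and the change was −0.53 ± 0.15 (adjusted p = 0.0771). Without young replicate 1, Gadd45g was −0.68 and passed (adjusted p = 0.00298). Its relatives Gadd45b and Gadd45a, named after their values were seen, had changes of 0.21 and 0.090 with overlapping groups. Without young replicate 1 these were 0.28 and −0.091.

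Idh1 and Idh2 make 2-oxoglutarate, the co-substrate that Tet enzymes consume. Idh1, the cytosolic form, averaged −1.11 ± 0.17 in aged cells and −0.88 ± 0.05 in young cells with separated groups (change −0.23 ± 0.11, adjusted p = 0.191). Idh2, the mitochondrial form, read −1.69, −2.70, −1.28 and −1.41 in aged replicates 1 to 4 and −2.20, −0.37, −0.28 and −0.14 in young replicates 1 to 4. Young replicate 1 lay inside the aged range and the other 3 young arrays above it. The change was −1.02 ± 0.48 (adjusted p = 0.179), and without young replicate 1 it was −1.50 and passed (adjusted p = 0.0123). Tdg, the glycosylase that cuts out oxidised methylcytosine, had 0.10, and Ogt, a glycosyltransferase that binds Tet proteins, had 0.081, both with overlapping groups.

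**Figure D4:**
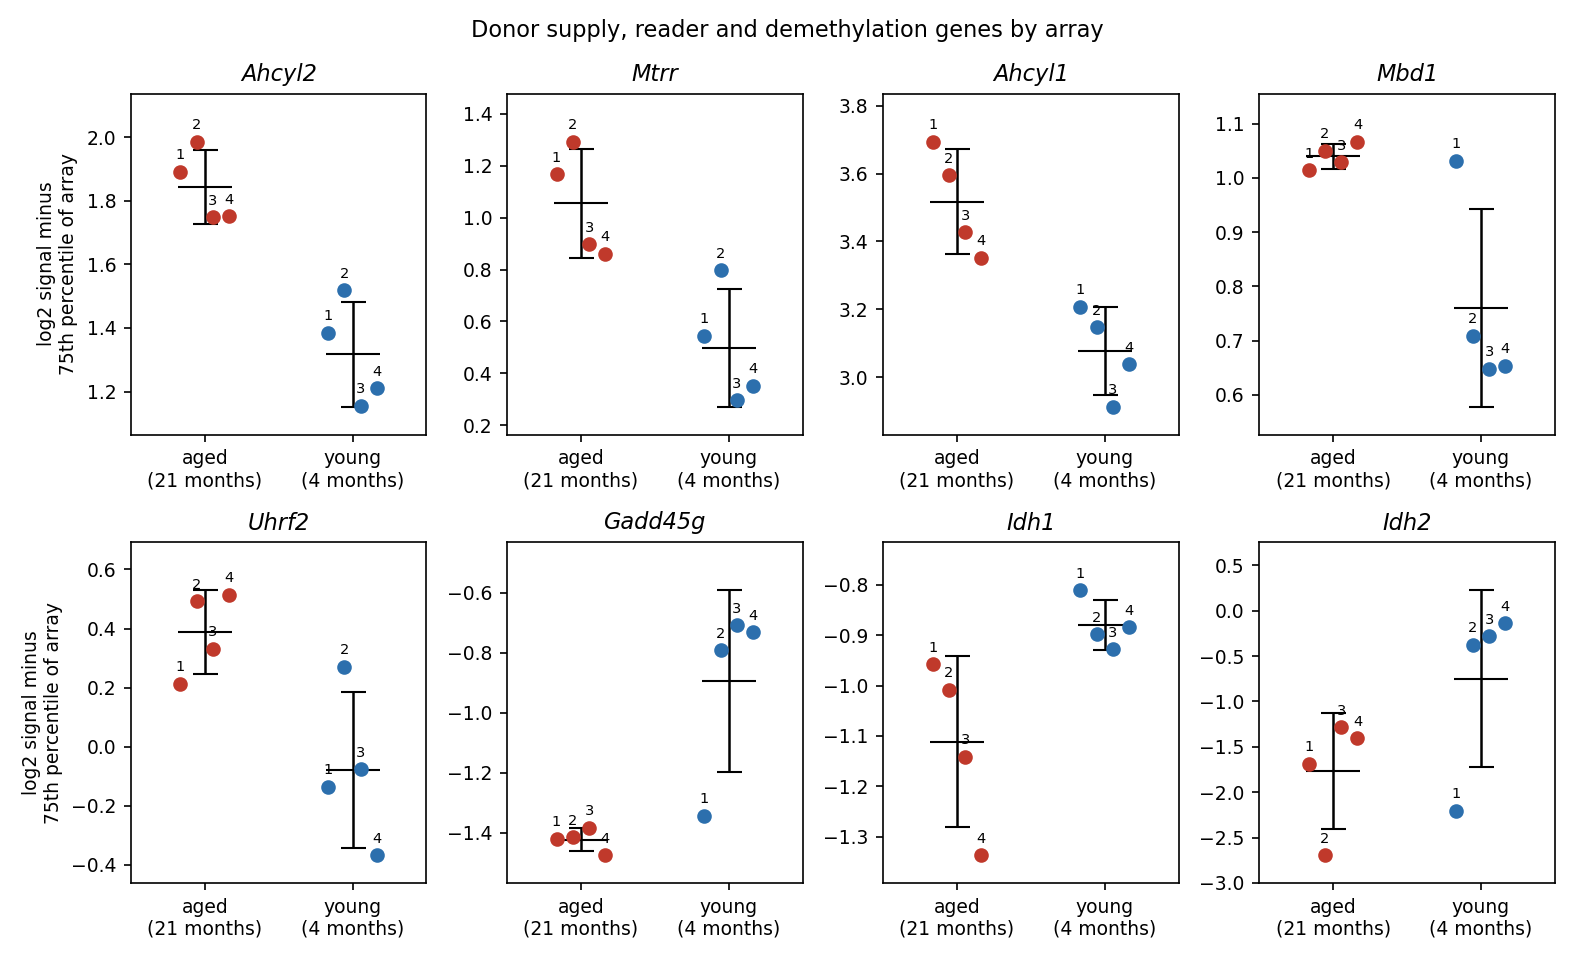
Log2 signal minus the 75th percentile of the array (vertical axes, one range per gene) for 8 genes of the donor, reader and Tet partner lists. Bars are the mean and SD of 4 aged or 4 young arrays, and replicate numbers stand beside the points. Young replicate 1 lies beside or inside the aged range in Gadd45g, Idh2 and Mbd1, and all aged values lie above all young values in Ahcyl2, Mtrr and Ahcyl1.

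Without young replicate 1, 11 of the 37 list genes passed limma, 9 higher and 2 lower, beside the 36.9% of all genes called there. The 9 were Mbd1 (0.37, adjusted p = 0.0112), Ahcyl2 (0.55, adjusted p = 0.0134), Mat2b (0.46, adjusted p = 0.0149), Ahcyl1 (0.48, adjusted p = 0.0172), Mtrr (0.57, adjusted p = 0.0320), Lig1 (0.55, adjusted p = 0.0360), Kdm1b (0.40, adjusted p = 0.0442), Piwil2 (0.38, adjusted p = 0.0490) and Zfp57 (0.69, adjusted p = 0.04998). Of these, Mat2b, Piwil2 and Zfp57 are named after their values were seen, and the 2 lower genes were Gadd45g and Idh2. Dnmt3a and Dnmt3l were not called there. Leaving out any other single array left 0 of the list genes called, and 0 of all genes (1954 to 3006 at an unadjusted p under 0.05).

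The maintenance enzyme and its partners follow DNA replication in dividing cells, so genes of proliferation were read beside them. Of 18 genes 15 were tested, with a median of 0.13 and 13 higher and 2 lower values. Without young replicate 1 the median was 0.22 and 3 were called higher, beside 20.8% of all genes. With all 8 arrays 1 gene was called, against 0.498% of all genes called higher. Bub1, a kinase of the spindle checkpoint, was called higher, with 3.85 ± 0.07 in aged cells and 3.21 ± 0.16 in young cells (change 0.64 ± 0.11, limma adjusted p = 0.0465). The mean of the list, each gene centred on its 8 arrays, ran from 0.041 to 0.17 on the aged arrays and from −0.19 to 0.16 on the young arrays, of which young replicate 1 was the highest. The groups of this list mean overlapped.

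The sort held RNA of several cell types, and fewer cells of a type and less RNA per cell cannot be told apart in these bulk samples. Of 18 tested spermatocyte markers 8 were called higher (Sycp3, Syce1, Dmc1, Msh4, Msh5, Spata22, Meiob and Tex101, by 0.72 to 1.43) and 0 lower, with higher values in 14 and lower in 4. Leaving out young replicate 1 gave 13 called higher and 3 lower, beside 20.8% and 16.1% of all genes called higher and lower there. The count called higher was also 13 with median scaling, and 6 with quantile scaling. It was 0 with the authors' log2 values, with the replicate block and with any other single array left out. The spermatocyte list mean ran from −0.0076 to 0.47 on the aged arrays and from −0.28 to −0.21 on the young arrays. All 18 spermatid markers had lower values and 0 were called, with list means of −1.23 to −0.15 on aged arrays and −0.53 to 1.16 on young arrays (Acr −1.10 and Tekt2 −1.97, adjusted p = 0.0531 and 0.0561). Of the 18, Acrv1 passed the filter only through the young group, with 3 of 4 aged arrays well above background. Without young replicate 1 all 18 were called lower (median −1.34, against −1.03 with it), beside 16.1% of all genes called lower there. The count of 0 also depended on the processing with all 8 arrays kept. It was 7 lower with spike-in scaling, 5 with median scaling, 5 with normexp and percentile scaling, 3 with eBayes trend and 18 with array weights. Of all 10236 genes tested, 1053, 263, 268, 149 and 1673 were called lower under these settings, in that order. The other settings that kept all arrays gave 0.

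Somatic markers were lower in value in several lists, with 0 called among the 10 tested of peritubular myoid and stromal cells (median −1.37, all 10 lower, Col1a1 −0.90 and Col3a1 −1.87), the 9 of macrophages and leukocytes (median −0.62, all 9 lower, Adgre1 −1.97 and Coro1a −0.50) and the 4 of endothelial cells (median −0.41, 3 lower, Kdr −1.02 and Eng −0.71). Without young replicate 1, 11 of 11 tested stromal markers were called lower (median −2.13), as were 5 of 10 of macrophages and leukocytes (median −1.01) and 1 of 4 of endothelial cells (median −0.45). In that setting 16.1% of all genes were called lower. Markers that entered the stromal and macrophage lists there passed the filter only through the remaining young arrays. The stromal list mean ran from −1.38 to −0.29 on aged arrays and from −0.65 to 1.22 on young arrays, the macrophage list mean from −1.22 to 0.30 and from −0.41 to 0.91, and the endothelial list mean from −0.32 to −0.12 and from 0.044 to 0.40. Of 5 tested Leydig cell markers 0 were called, with or without young replicate 1 (median −0.10, and −0.25 without it, Cyp17a1 −0.29 and Hsd3b1 −0.49), with list means of −0.74 to 0.41 on aged arrays and −0.74 to 0.57 on young arrays. Of the Sertoli markers, Amh, Fshr, Gata4, Wt1 and Cldn11 failed the filter on dim probes, and of the 5 tested 1 was called, Rhox5 at 0.82 (adjusted p = 0.0465; median 0.23, list means of 0.0075 to 0.33 on aged arrays and −0.48 to 0.056 on young arrays). With young replicate 1 left out, 10 Sertoli markers passed the filter, 1 was called higher and the median was −0.20. The added markers passed only through the remaining young arrays. The medians of 0.23 and −0.20 therefore cover different genes and are not compared.

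Undifferentiated spermatogonia had a median of −0.16 over 13 tested genes with 0 called (Gfra1 −0.89 and Epcam 0.46, adjusted p = 0.0742 and 0.0561), and list means of −0.15 to −0.033 on aged arrays and −0.0053 to 0.25 on young arrays. Its median was −0.059 without young replicate 1, and Epcam (0.51, adjusted p = 0.00802) and Gfra1 (−1.10, adjusted p = 0.00841) were called there. Differentiating spermatogonia had a median of 0.049 over 6 with 0 called (Rec8 0.47 and Ccnd2 −0.79, adjusted p = 0.0934 and 0.0705), and list means of −0.11 to 0.11 on aged arrays and −0.077 to 0.14 on young arrays. Leaving out the same array gave a median of 0.13 and a call for Ccnd2 (−0.71, adjusted p = 0.0464). The part of cell composition in the values of Dnmt3l, Dnmt3a and the methylation lists was not tested. Among the aged arrays Dnmt3l was lowest on replicate 2 (−2.78) and highest on replicate 4 (−1.90). Replicates 1 and 3 (−2.38 and −2.37) have no order, as duplicate spots differed by 0.47 on aged replicate 1. The list means of spermatids (−1.23 and −0.15), macrophages (−1.22 and 0.30) and undifferentiated spermatogonia (−0.15 and −0.033) were also lowest on replicate 2 and highest on replicate 4. The other marker lists were not, among them the stromal list, lowest on replicate 2 and highest on replicate 1. In young replicate 1, where the stromal and spermatid list means were −0.65 and −0.53 against 0.60 to 1.22 on the other young arrays, Dnmt3l stood at −2.01, within the −2.16 to −1.80 of those arrays.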

How the data were processed

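RNA of the sorted cells was measured on 8 one-colour Agilent arrays. Per the file headers, Agilent Feature Extraction 10.7.3.1 (12.5 in the submitters' processing notes) removed background and a spatial trend to give the deposited linear intensity, not scaled across arrays. Median intensity of spot and surroundings was deposited uncorrected. The authors' series table holds log2 values, centred on the median of each probe, and their scaling before that is not given in the sources used here.

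Control and outlier spots were left out (0 outliers among spots of the members), spots were averaged per probe as log2, and the 75th percentile over probes was subtracted from each array. Of 30367 probes 17998 matched 15154 genes of the RefSeq table of GRCr8, used for names only. A gene's brightest probe was used, where a share of 0.5 or more of the spots passed Agilent's well-above-background mark on each array of either group, which left 10236 genes. No spot was saturated. limma 3.58.1 (lmFit, eBayes, two-sided) in R 4.3.3 tested aged against young, with Benjamini-Hochberg adjustment over all genes, and the code was tested on simulated data. Exact permutation tests used SciPy 1.17.1. Members and lists were chosen with earlier results of these data known, and 1 gene of the reader list is not reported here. The naming rule took all members, the called genes of each list or otherwise the 3 (pathway and proliferation lists) or 2 (marker lists) with the smallest p, Cd9, Ddx4 and the 3 genes most like each tested member. Alternatives covered scaling, background correction, the authors' log2 values, filters, probes, variance models, the replicate block and each array left out.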

Additional observations from a re-analysis of the deposited data

Results flagged for a closer look

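In 6 of 82 groups of 4 arrays (41 named genes, 2 groups each) 1 array stood apart from the other 3 by more than Dixon's critical gap at the 95% level, which chance exceeds in about 1 of 20 groups. All 6 were young replicate 1, and none was in Dnmt3a or Dnmt3l. On the log2 scale above the 75th percentile, young replicate 1 read 1.03 for Mbd1 (others 0.65 to 0.71), −1.34 for Gadd45g (others −0.79 to −0.71) and −2.20 for Idh2 (others −0.37 to −0.14). Among markers it read 3.66 for Tex101 (others 3.92 to 3.93), −4.25 for Col3a1 (others −2.65 to −2.36) and −4.06 for Adgre1 (others −2.71 to −2.53).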

How the results depend on the processing

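The count of genes called over all genes, 67 as reported, was 1330 with median scaling, 1059 with spike-in scaling, 633 and 259 with normexp and percentile or quantile scaling, 4 with the authors' log2 values, 427 with eBayes trend and 4530 with array weights. It was 0 with no scaling, with no filter on dim probes, with every probe tested and with the replicate block (1389, 3339, 5332 and 3231 at an unadjusted p under 0.05), and 0 to 3927 with 1 array left out. Of the members, 1 was called with spike-in scaling, Dnmt3l at −0.81, and 0 under all other alternatives. Dnmt3l kept values below 0 throughout, −0.51 to −0.22 with 1 array left out. Dnmt3a turned positive with quantile scaling (0.028), median scaling (0.065), normexp and percentile scaling (0.00497), normexp and quantile scaling (0.058), array weights (0.023) and without young replicate 1 (0.018), and ran from −0.16 to 0.018 with 1 array left out. With spike-in scaling Mbd1 (−0.18), Mbd3 (−0.31), Kdm1b (−0.13) and Ahcyl1 (−0.0141) turned negative. The cause was not tested. Over the 4 methylation lists, 0 of 37 genes were called as reported, 6 with median scaling, 3 with spike-in scaling, 2 with normexp and percentile scaling, 1 with eBayes trend, 11 higher and 3 lower with array weights, and 9 higher and 2 lower without young replicate 1. With the replicate number as a block, Dnmt3l was −0.36 (adjusted p = 0.121) and Dnmt3a −0.09 (adjusted p = 0.64). The numbers do not pair the samples by the labels, and same-numbered arrays deviated with r of −0.26, −0.12, 0.44 and 0.35 from their group means. With array weights, 13 spermatocyte markers were called higher and 3 lower, and 18 of 18 spermatid, 10 of 10 stromal, 5 of 9 macrophage and 2 of 4 endothelial markers lower. Under that setting 2857 of all 10236 genes were called higher and 1673 lower. Signals near background limit Dnmt1 in particular.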
